A study of Homo sapiens with 38 samples.

Results

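The precursor miRNA entries described here are the features of a deposited small RNA count table that carry the type label pre_miRNA and had at least 1000 counts summed over all 38 libraries. This rule kept 176 of the 458 entries of that type, among 90127 features of all types. The 3 entries just inside the threshold had 1004, 1008 and 1052 counts, and the 3 just outside had 988, 987 and 968. The 176 entries held 99.92% of all counts given to precursor miRNA entries and 15.0% of all counts in the table. All 176 carry RNAcentral identifiers, which the files do not pair with a miRNA name or a genome position. Members are therefore called by their rank in summed count, entry 1 being the most abundant, and no hairpin sequence is shown.

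The libraries came from 2 acute myeloid leukaemia cell lines labelled as wild type (WT), HL60, a promyelocytic line, and KG1a, a line with primitive myeloid markers. From each line, RNA was taken from small extracellular vesicles (sEV), large extracellular vesicles (lEV) and whole cells, membrane vesicles being particles that cells release into the medium. Each source was sequenced as rPAL RNA and as total RNA. rPAL oxidises sialic acid with periodate and ligates the aldehyde to biotin, so that sialylated RNA can be pulled down, and the total RNA was its input control. The rPAL groups were HL60 sEV, HL60 lEV, HL60 cells, KG1a sEV and KG1a lEV with 3 libraries each and KG1a cells with 4, and the total RNA groups had the same numbers. Cells used for cell RNA grew with 10% serum, while vesicles came from cells kept 2 days without it. Source and culture therefore cannot be told apart between a vesicle and a cell library. All libraries were made with 1 small RNA kit that ligates adaptors to both RNA ends and selects fragment size on a gel. No label states that the replicates came from different cultures, and the p-values hence measure the spread between these samples, which may be technical.

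A miRNA starts as a long primary transcript, from which the nuclear enzyme Drosha with its partner DGCR8 cuts a hairpin, the precursor. Exportin 5 carries the hairpin to the cytoplasm, where Dicer cuts out a short duplex, and an Argonaute protein keeps 1 strand as the mature miRNA. The mature sequence lies inside the hairpin, so a short read can be assigned to a precursor entry, to a mature miRNA entry or to both. miRNAs of vesicles have been studied widely as RNA that leaves the cell, and the miRNAs of blood cells differ by lineage and stage.

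Library totals ranged between 2380745 and 15532758 counts in rPAL RNA and between 5498168 and 14892937 in total RNA. Several libraries stood apart in the members' share of counts or in their composition, and results that rest on them are given with and without them. These were KG1a cell rPAL replicates 2 and 3, with 16.0% and 18.9% of counts in the members against 4.83% and 0.873% in replicates 1 and 4. HL60 lEV total replicate 2 had 1.42% against 6.47% and 6.72% in replicates 1 and 3. KG1a sEV and KG1a lEV rPAL replicate 3 differed from their fellow replicates in entry 48, described later. The mRNA of the stem cell antigen CD34 averaged at most 0.10 CPM (counts scaled to a library total of 1000000) in any HL60 total RNA group, against 18.4, 9.11 and 2.95 CPM in KG1a sEV, lEV and cells. MPO, the granule enzyme myeloperoxidase, averaged 3.31, 6.02 and 2.49 CPM in HL60 sEV, lEV and cell total RNA, against 0.39 CPM, no count and 0.02 CPM in KG1a. These 2 came from lists of 5 primitive and 6 promyelocytic genes, whose others had at most 178 counts each. In cell total RNA, PROM1, AZU1, PRTN3, CTSG and LYZ were higher in the line of their list. HLF of the primitive list averaged 0.28 CPM in HL60, against 0.07 CPM in KG1a. MECOM averaged 0.05 CPM in both lines, and SPINK2 and ELANE had no count in either. A list of 7 erythrocyte and serum RNAs, matched by gene symbol, summed to at most 0.672 CPM in any library. Its miRNA genes MIR451A and MIR122 had no count under those symbols, and counts on unnamed RNAcentral entries of the same miRNAs were not seen by this check.

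Some members kept a nearly fixed ratio to each other or to entries of other types. Among the 132 members with at least 100 counts in at least 10 libraries, 9 pairs kept a constant ratio, with a standard deviation of at most 0.1 on the log2 scale over those libraries. The pairs hold 18 members, such as entries 2 and 3 with summed counts of 3525015 and 3483562. Entries 4 and 5, with 2676071 and 2563148 counts, did not meet that rule but correlated at 1.000 in log2(CPM + 1) over the 38 libraries. Of the 132 members, 27 kept a constant ratio with a mature miRNA entry (15) or an entry typed only as ncRNA (12), and 12 of these 27 were also in a member pair. Entries 2 and 3 tracked a mature miRNA entry with 3493439 counts. Over all 176 members, 152 had a correlation of at least 0.95 with an entry of another type among 3141 features searched, and 73 had at least 0.99. The closest such entry was an ncRNA for 98 members, a mature miRNA for 73, a protein-coding gene for 4 and a tRNA for 1. A member's value is thus the count at a hairpin annotation. Whether such entries count the same reads, and whether the reads came from hairpins or from mature miRNAs, was not tested.

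In total RNA the class rested on a few entries. Entry 1, URS000230F82E, was the largest member in every total RNA library of KG1a and of HL60 cells. It averaged 11.7%, 12.7% and 33.2% of the member counts in HL60 sEV, lEV and cell total RNA, and 26.7%, 30.8% and 31.5% in KG1a sEV, lEV and cell total RNA. Entries 4 and 5 led instead in HL60 lEV, and entry 5 led in HL60 sEV replicates 1 and 2. Entry 4 averaged 16.2% of the member counts in both HL60 vesicle kinds, against 6.89% in HL60 cells and 3.42% in KG1a cells. Between 4 and 7 entries made up 50% of the member counts in any total RNA library, and the 10 largest made up 58.6% to 69.9%. In rPAL libraries the same 10 entries made up 16.3% to 59.0%. KG1a cell total RNA gave 43.3% of all summed member counts and HL60 cell total RNA 17.2%, while each vesicle rPAL group gave under 1%. The threshold on the sum thus favours entries that are abundant in KG1a cell total RNA. Comparisons in total RNA were for this reason repeated with precursor entries that reached 1000 counts outside the groups compared. Only the comparison of cells between the lines left all cell total RNA out of this choice.

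**Figure D1:**
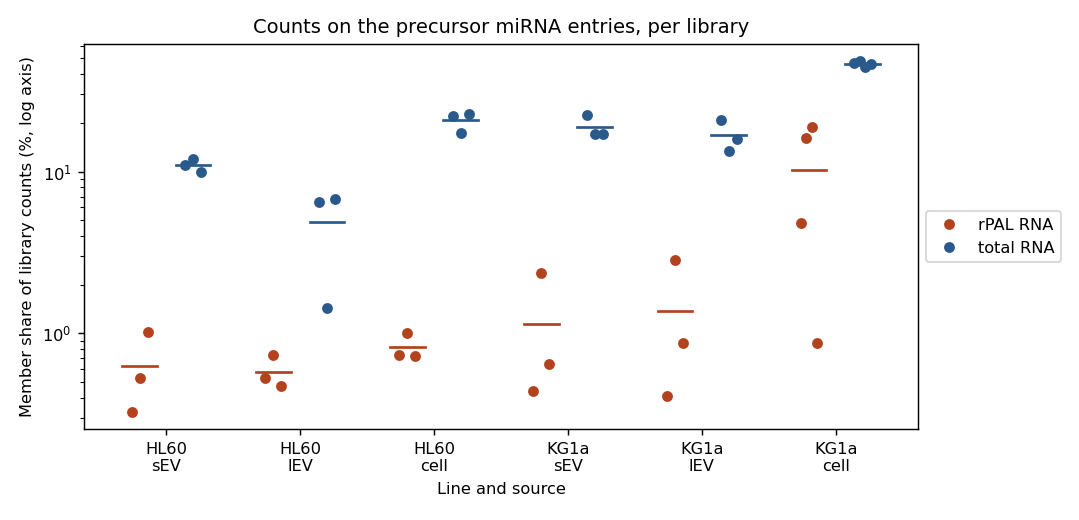
Percentage of each library's counts that fell in the 176 precursor miRNA entries (vertical axis, log scale), with 1 point per library, for the 6 sources in rPAL and total RNA; bars mark group means. Total RNA points lie above the rPAL points of the same source in all 6 sources, and the KG1a cell rPAL points spread between 0.873% and 18.9%.

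The number of members seen at all also differed between the groups. In rPAL RNA, 49 to 69 of the 176 members had a count in a library of HL60 sEV, 61 to 82 in HL60 lEV and 154 to 161 in HL60 cells. In KG1a rPAL RNA the ranges were 54 to 147 in sEV, 69 to 162 in lEV and 153 to 171 in cells. In total RNA every library had a count for at least 167 members. In HL60 sEV rPAL RNA 97 members had no count in any of the 3 libraries, and in HL60 lEV rPAL RNA 74 had none. The count of a group is limited by its depth, so a member with no count may lie under the limit that 3 counts over the group give. The order of the members by mean CPM in rPAL RNA followed that in total RNA most closely in KG1a cells, with Spearman's rho of 0.861 across the 176 members. It was 0.831 in KG1a lEV, 0.823 in KG1a sEV, 0.814 in HL60 cells, 0.648 in HL60 lEV and 0.611 in HL60 sEV. The members share libraries, so these values are a description.

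The fall of the class in rPAL RNA was part of how the entries were chosen, so the values of this contrast are a description and no test of the members is read from it. In HL60 sEV, 108 of 149 tested members were called lower in rPAL than in total RNA and none higher (edgeR's quasi-likelihood test, Benjamini-Hochberg adjusted p under 0.05). The background over all features tested was 16.3% lower and 2.51% higher. In HL60 lEV, 72 of 123 were called lower and 3 higher, with 18.9% and 12.3% of all features. Those higher were entries 30, 48 and 142. In HL60 cells, 147 of 161 were called lower and 4 higher, with 18% and 20.6% of all features. Those higher were entries 43, 48, 142 and 167. In KG1a sEV, 93 of 159 were called lower and none higher, with 6.13% and 0.48% of all features. In KG1a lEV, 75 of 156 were called lower and none higher, with 7.07% and 3.16% of all features. In KG1a cells, 105 of 164 were called lower and 1, entry 142, higher, with 9.86% and 8.89% of all features. The tested members are those that passed the filter on low counts, and the others of the 176 had enough counts in too few libraries.

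The sizes of these differences spread widely among members. The median log2 fold change of rPAL over total RNA was -8.18 in HL60 sEV, -5.20 in HL60 lEV, -5.35 in HL60 cells, -4.75 in KG1a sEV, -4.37 in KG1a lEV and -3.35 in KG1a cells. Where members without any rPAL count were set at the limit of 3 counts over the group, the medians became -5.44, -5.13, -5.35, -4.69, -4.34 and -3.35 in the same order. In HL60 sEV 71 of the 149 tested members had no rPAL count and a fitted value without rPAL counts. The middle 80% of members ran between -12.31 and -2.82 in HL60 sEV and between -5.57 and 0.15 in KG1a cells. The medians of all features were between -0.42 and 0.08. Without the composition scaling (TMM), the HL60 lEV median was -3.89 and that of all features 1.52. The mean log2 scaling factors of its groups differed by 1.47. In KG1a cells, leaving out the rPAL replicates 2 and 3 gave 133 members lower and 2 higher, at a median of -4.75. Calls among all features rose as well, to 3777 from 1236 with all libraries. The median in KG1a lEV was -6.25 and that in KG1a sEV -6.30 without rPAL replicate 2. In HL60 lEV it was -7.15, -7.51 and -6.72 without rPAL replicate 1, 2 or 3, and also -6.72 without total replicate 2. These 4 fits tested 156, 155, 156 and 141 members, against 123 with all libraries. Those in KG1a lEV and sEV tested 161 and 163, against 156 and 159. The medians are thus not of the same members, and the part due to the left-out library was not tested. Only 106 of the 176 members were tested in all 6 sources, and 31 of these were called lower in every one. Of all 176, 19 were called lower in none. Mature miRNA entries with at least 1000 counts had medians between -8.19 in HL60 sEV and -2.97 in KG1a cells. Unspecified ncRNA entries had medians between -8.09 and -3.64 in the same sources.

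**Figure D2:**
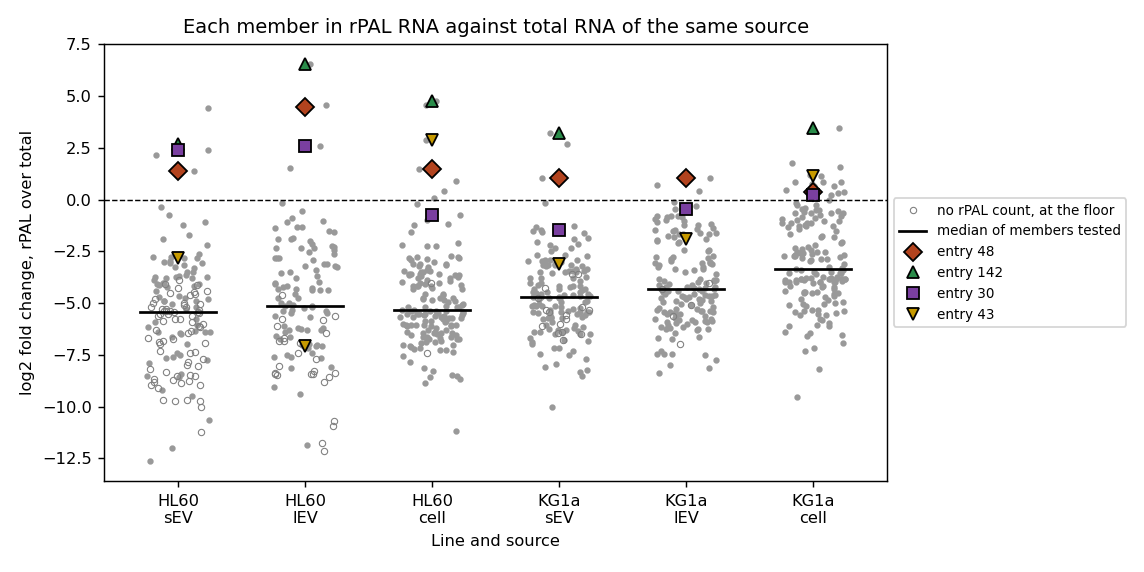
Fitted log2 fold change of rPAL over total RNA for each tested precursor entry in the 6 sources, with 1 circle per entry, hollow where no rPAL library had a count and the value was set at the limit of 3 counts; horizontal lines are medians. Most circles lie under 0 in every source, with medians between -5.44 and -3.35, and entries 48 and 142 lie above 0 in each source where they were tested.

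Entry 1 shows the common pattern at the highest counts. In HL60 sEV it had 27.8, 1.48 and 92.0 CPM in rPAL RNA, against 12144, 11239 and 14558 CPM in total RNA. In KG1a cells it had 1202, 10338, 7979 and 192 CPM in rPAL RNA, against 170215, 157852, 135811 and 119177 CPM in total RNA. In both sources every rPAL library lay below every total RNA library. The fitted log2 fold change was -8.58, -9.06 and -8.29 in HL60 sEV, lEV and cells, and -7.15, -7.45 and -5.42 in KG1a sEV, lEV and cells. Entry 1 averaged between 0.59% and 4.29% of the member counts in the rPAL groups.

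Entry 2, the second largest, was lower by much less, and its partner entry 3 moved with it by their constant ratio. In HL60 cells it had 793, 1146 and 913 CPM in rPAL RNA, against 10453, 8807 and 9418 CPM in total RNA. In KG1a cells it had 11157, 30948, 44615 and 1825 CPM in rPAL RNA, against 20159, 22629, 20854 and 26672 CPM in total RNA. In KG1a cells the groups overlapped, with rPAL replicates 2 and 3 above all 4 total RNA libraries and replicates 1 and 4 below them. The log2 fold change was -3.76, -3.22 and -3.60 in HL60 sEV, lEV and cells. In KG1a sEV, lEV and cells it was -3.18, -1.98 and -0.49. Entry 2 averaged 7.80%, 13.4% and 11.6% of the member counts in HL60 sEV, lEV and cell rPAL RNA, against 5.45%, 5.84% and 4.66% in the matching total RNA. In KG1a it averaged 13.5%, 18.5% and 21.7% in sEV, lEV and cell rPAL RNA, against 6.09%, 6.28% and 4.89% in total RNA.

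Few entries lay above 0 in this contrast. With a log2 fold change above 0 in at least 4 of the 6 sources as the rule, 2 members qualified, entries 48 and 142. Of the others, 155 members were above 0 in no source, 12 in 1, 4 in 2 (entries 43, 70, 146 and 173) and 3 in 3 (entries 30, 133 and 167). Entry 48 was the member that entry 142 followed most closely over the 38 libraries, with r = 0.811 in log2(CPM + 1). The closest feature of another type was an ncRNA entry for each, with r = 0.953 for entry 48 and 0.933 for entry 142.

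Entry 48, URS000230EC1B, was above 0 in all 6 sources. In HL60 sEV it had 1419, 3108 and 5361 CPM in rPAL RNA, against 131, 480.2 and 2331 CPM in total RNA. In HL60 lEV it had 2537, 927 and 1947 CPM in rPAL RNA, against 11.7, 7.61 and 78.0 CPM in total RNA. In HL60 cells it had 65.6, 114 and 116 CPM in rPAL RNA, against 31.9, 25.2 and 32.6 CPM in total RNA. The groups did not overlap in HL60 lEV and cells and did in HL60 sEV, where total RNA replicate 3 passed rPAL replicate 1. In KG1a sEV it had 373, 571 and 2809 CPM in rPAL RNA, against 178, 1160.2 and 306 CPM in total RNA. In KG1a lEV it had 145, 86.3 and 2120.3 CPM in rPAL RNA, against 305, 223 and 252 CPM in total RNA. In KG1a cells it had 307, 428, 534 and 399.7 CPM in rPAL RNA, against 251, 266, 281 and 329.5 CPM in total RNA. The groups overlapped in all 3 KG1a sources, and in both vesicle kinds replicate 3 of the rPAL RNA was far above the other 2.

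The log2 fold change of entry 48 was 1.40 ± 1.09 in HL60 sEV, 4.47 ± 0.96 in HL60 lEV and 1.46 ± 0.36 in HL60 cells (± SE). It was 1.02 ± 1.03 in KG1a sEV, 1.03 ± 1.10 in KG1a lEV and 0.37 ± 0.43 in KG1a cells. Its place above 0 in KG1a vesicles rested on 1 library each. Without rPAL replicate 3 it was -0.70 in KG1a sEV and -1.02 in KG1a lEV. In HL60 sEV it was 0.29 without rPAL replicate 3, 0.44 without total replicate 1, 0.17 without total replicate 2 and 2.39 without total replicate 3. Entry 48 was picked on this contrast, so its calls are a description and not a test. In HL60 lEV it was not called without total replicate 1 or 2. In HL60 cells it was not called when any 1 total RNA library was left out, nor without the filter on low counts. Its share of the member counts was larger in rPAL than in total RNA in every source. It averaged 51.5%, 34.0% and 1.21% of the member counts in HL60 sEV, lEV and cell rPAL RNA, against 0.96%, 0.06% and 0.01% in the matching total RNA. In KG1a it averaged 18.1%, 9.38% and 1.44% in sEV, lEV and cell rPAL RNA, against 0.31%, 0.16% and 0.06% in total RNA. It was the largest member in all 3 HL60 sEV rPAL libraries, in 2 of 3 HL60 lEV rPAL libraries and in rPAL replicate 3 of KG1a sEV and lEV.

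Entry 142 was scarce, with 3136 counts in all. In HL60 lEV it had 22.7, 47.2 and 119 CPM in rPAL RNA, against 0.168, 0.0732 and 0.518 CPM in total RNA. In HL60 sEV it had 46.0, 43.7 and 214 CPM in rPAL RNA, against 3.09, 1.56 and 30.0 CPM in total RNA. In KG1a cells it had 5.40, 4.50, 3.72 and 2.96 CPM in rPAL RNA, against 0.217, 0.740, 0.188 and 0.168 CPM in total RNA. The groups did not overlap in any of these 3 sources. Its log2 fold change was 2.67, 6.55 and 4.74 in HL60 sEV, lEV and cells, and 3.21 and 3.44 in KG1a sEV and cells. In KG1a lEV it did not pass the filter, with 0.884, 0.969 and 107 CPM in rPAL RNA against 0.0791, 0.464 and 0.306 CPM in total RNA. In KG1a sEV, with 5.10, 8.97 and 89.2 CPM in rPAL RNA against 1.82, 6.41 and 1.85 CPM in total RNA, the value without rPAL replicate 3 was 0.57. In HL60 sEV the values with 1 library left out ran between 1.02 and 4.66. Its calls are a description too, as it was picked on this contrast. They were lost without total replicate 1 or 2 in HL60 lEV and without total replicate 1 or 3 in HL60 cells. In KG1a cells the call was lost without total replicate 1, 3 or 4. Without the filter the calls in HL60 lEV and KG1a cells were lost as well.

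Entries 30 and 43 were above 0 in some sources and below it in others. Entry 30 had 210.0, 640.4 and 489 CPM in HL60 sEV rPAL RNA, against 78.6, 53.9 and 112 CPM in total RNA. In KG1a sEV it had 119.8, 951 and 548 CPM in rPAL RNA, against 1586, 966 and 1087 CPM in total RNA. The libraries of the 2 kinds thus did not overlap in either source, with rPAL higher in HL60 sEV and lower in KG1a sEV. Its log2 fold change was 2.41, 2.60 and -0.73 in HL60 sEV, lEV and cells, and -1.48, -0.48 and 0.22 in KG1a sEV, lEV and cells. The difference between the lines was not tested.

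Entry 43, URS0000BA5588, lay above 0 in cells and below 0 in vesicles. In HL60 cells it had 2239.8, 4080.1 and 2302 CPM in rPAL RNA, against 402, 207 and 366 CPM in total RNA. In HL60 lEV it had 28.4, 33.8 and 20.9 CPM in rPAL RNA, against 561, 1252 and 2227 CPM in total RNA. In KG1a cells it had 927, 663, 609.6 and 608 CPM in rPAL RNA, against 283, 262, 395 and 199 CPM in total RNA. None of these groups overlapped, with rPAL RNA above total RNA in the cells of both lines and below it in HL60 lEV. It was the largest member in all 3 HL60 cell rPAL libraries, at 30.5%, 40.4% and 31.9% of the member counts. Its log2 fold change was -2.85, -7.06 and 2.88 in HL60 sEV, lEV and cells, and -3.13, -1.89 and 1.16 in KG1a sEV, lEV and cells. Of the 4 features of other types that followed it most closely over the 38 libraries, 3 were tRNA entries, the closest with r = 0.854.

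**Figure D3:**
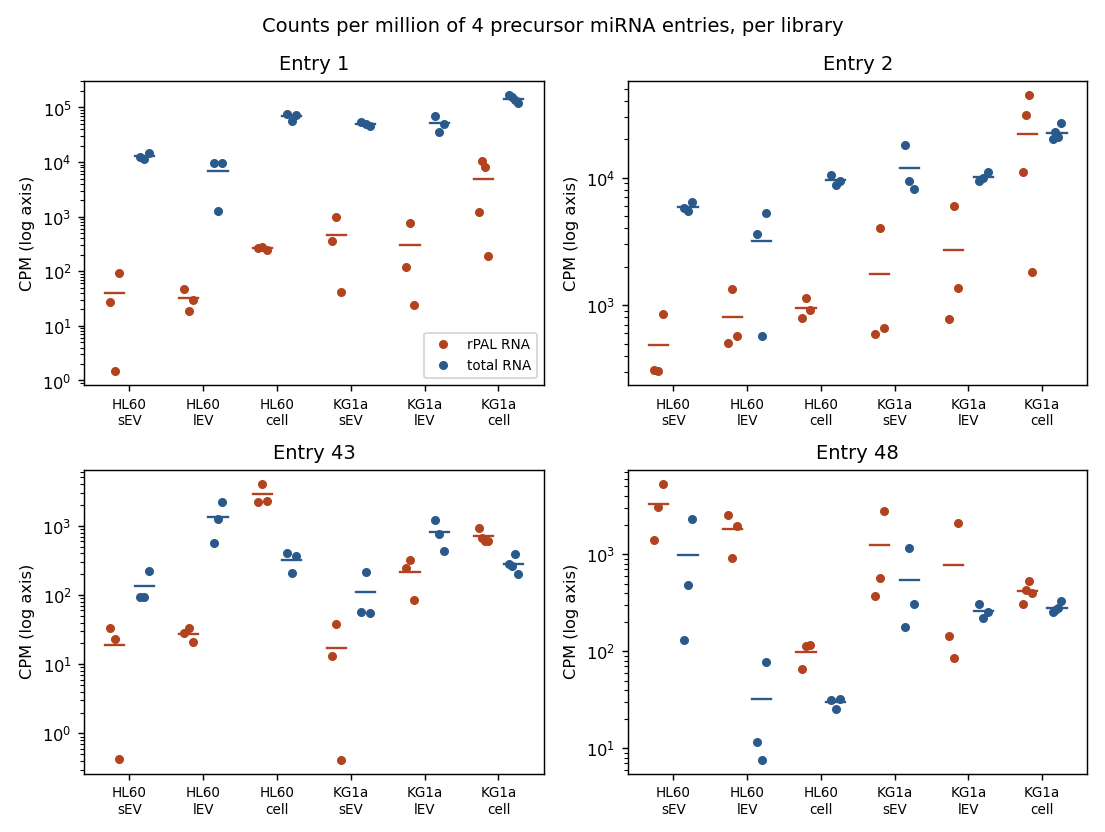
CPM (vertical axis, log scale) of entries 1, 2, 43 and 48 in each library of the 6 sources, rPAL RNA beside total RNA, with 1 point per library. Entry 1 lies lower in rPAL RNA in every source, entry 2 overlaps between rPAL and total RNA in KG1a cells, entry 43 lies higher in rPAL RNA of cells, and entry 48 reaches 5361 CPM in HL60 sEV rPAL RNA.

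No contrast within total RNA was used to choose the members, although total RNA counts entered the sum behind the threshold. In vesicles of both lines most members that were called were lower than in cells. In KG1a sEV against cells, 134 of 165 tested members fell and 1 rose, against 22.1% lower and 23% higher among all features. The median log2 fold change of the members was -2.13, and that of all features 0.22. In KG1a lEV against cells, 126 of 165 fell and 3 rose, against 28.5% lower and 23.8% higher among all features, with a median of -1.59 and -0.01 for all features. In HL60 sEV against cells, 77 of 168 fell and 11 rose, against 12.8% lower and 13.9% higher among all features. The median was -0.95, and 0.16 for all features. In HL60 lEV against cells, 60 of 164 fell and 6 rose, against 15.2% lower and 12.1% higher among all features, with a median of -1.25 and 0.16 for all features. In such bulk RNA, fewer contributing cells or vesicles and less RNA in each cannot be told apart.

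The direction of the members' median held when the entries were chosen on other libraries, but this choice was not free of cell RNA. For HL60 it still used KG1a cell total RNA, which gave 43.3% of all summed member counts. For KG1a it used HL60 cell total RNA, which gave 17.2%, and KG1a cell rPAL RNA. All entries so chosen were already members. Whether a threshold that favours entries abundant in cells shaped the medians was therefore not tested by this repeat. With precursor entries that had 1000 counts outside the groups compared, an alternative chosen after seeing the data, 123 of 146 fell and 1 rose in KG1a sEV, and 114 of 149 fell and 3 rose in KG1a lEV. In HL60 sEV 69 of 151 fell and 9 rose, and in HL60 lEV 54 of 149 fell and 4 rose. The medians were -2.25, -1.59, -0.95 and -1.27 in that order. Scaling mattered for the size. Without TMM, 93 members fell and 7 rose in KG1a sEV, at a median of -1.10 beside 1.34 for all features. Without TMM in HL60 lEV, 100 fell and 1 rose, at -2.10 beside -0.61 for all features. In HL60 lEV leaving out total RNA replicate 2, the library with a low member share, gave 62 lower and 10 higher at a median of -0.82. Leaving out lEV total RNA replicate 1 gave 101 called, and leaving out cell replicate 1 or 3 gave 36 and 34. Calls among all features were 2263, 1025 and 1059 in the same order, against 1785 with all libraries. They were 2594 without lEV replicate 2. In HL60 sEV leaving out cell replicate 1, 2 or 3 gave 57, 55 and 58 called members, against 88 with all libraries. There the calls among all features were 553, 531 and 631, against 2018 with all libraries.

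Entry 1 was among the members that fell. It had 12144, 11239 and 14558 CPM in HL60 sEV total RNA and 9610.3, 1264 and 9595 CPM in HL60 lEV, against 76466, 56393 and 73491 CPM in HL60 cells. In KG1a it had 54248, 49226 and 46433 CPM in sEV and 71008, 36087 and 50023 CPM in lEV, against the cell values given earlier. All vesicle libraries lay below all cell libraries of their line. On the log2 scale the fold change was -2.70 ± 0.24 in HL60 sEV (adjusted p = 0.0007) and -2.56 ± 0.64 in HL60 lEV (adjusted p = 0.0112). In KG1a it was -2.60 ± 0.34 in sEV and -1.59 ± 0.28 in lEV. The other large entries differed in how far they followed. Entry 4 fell in KG1a sEV by 1.76 ± 0.33 and in KG1a lEV by 1.20 ± 0.27 on the log2 scale. In HL60 its values were 0.11 in sEV and -0.11 in lEV, neither of which passed the test. It had 17804, 21865 and 14045 CPM in HL60 sEV and 9783, 2438 and 10986 CPM in HL60 lEV, against 13923, 11978 and 16854 CPM in HL60 cells. Entry 2 had a log2 fold change of -0.95 in HL60 sEV (adjusted p = 0.0176) and -0.90 in HL60 lEV (adjusted p = 0.283), and of -1.99 and -1.27 in KG1a sEV and lEV.

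Entries 6 and 10, further large members, differed in how far they fell. Entry 6 had 2213, 2939 and 1400.3 CPM in HL60 sEV and 970.0, 102 and 602 CPM in HL60 lEV, against 7667, 6424 and 9150.4 CPM in HL60 cells. All vesicle libraries were below the cells, and it fell by 2.04 ± 0.37 in HL60 sEV (adjusted p = 0.0055) and by 2.93 ± 0.72 in HL60 lEV (adjusted p = 0.0096) on the log2 scale. In KG1a it fell by 3.21 ± 0.36 in sEV and by 2.41 ± 0.33 in lEV. Entry 10 fell in KG1a, by 1.96 ± 0.32 in sEV and 1.16 ± 0.27 in lEV, while in HL60 its values of -0.30 in sEV and -0.72 in lEV did not pass (adjusted p = 0.545 and 0.349). Entries 8 and 9, a constant-ratio pair, fell together in HL60 sEV, by 1.24 and 1.21, and in KG1a lEV, by 1.80 and 1.79.

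The deepest falls were shared by the lines. Entry 49 had 24.6, 35.8 and 12.8 CPM in HL60 sEV and 7.96, 1.46 and 3.77 CPM in HL60 lEV, against 714, 448 and 709 CPM in HL60 cells. In KG1a it had 624, 32.7 and 65.5 CPM in sEV and 83.7, 18.6 and 28.5 CPM in lEV, against 2316, 2946, 2695 and 2709.7 CPM in cells. No vesicle library overlapped with a cell library, though KG1a sEV replicate 1 stood far above the other 2. Its log2 fold change was -4.86 ± 0.51 in HL60 sEV, -6.22 ± 0.79 in HL60 lEV, -4.53 ± 0.92 in KG1a sEV and -6.03 ± 0.54 in KG1a lEV, with adjusted p of 0.000947, 0.000372, 0.00234 and 1.23e-06. Entries 83, 76 and 42 fell in all 4 comparisons too, by between 3.65 and 5.82 on the log2 scale. Of the 60 members lower in HL60 lEV, 58 were also lower in KG1a lEV, which is 96.7% of the HL60 list and 46.0% of the 126 in KG1a. Of the 77 members lower in HL60 sEV, 72 were also lower in KG1a sEV, which is 93.5% of the HL60 list and 53.7% of the 134 in KG1a. Among all members tested in KG1a, 76.4% were lower in lEV and 81.2% in sEV, so a large overlap was to be had from these shares alone. No member went in opposite directions between the lines in lEV, and 2, entries 47 and 133, did in sEV.

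**Figure D4:**
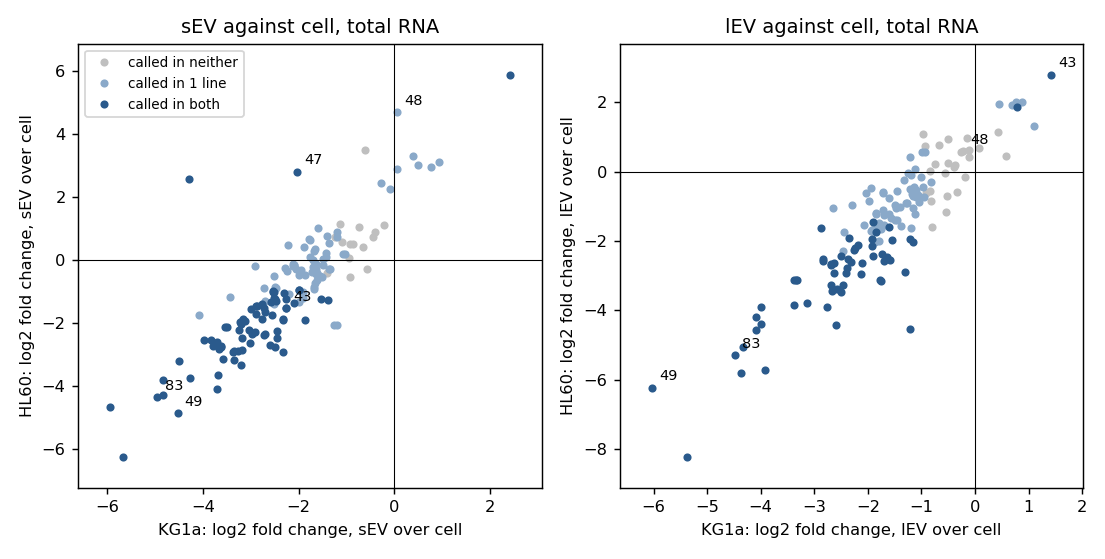
Fitted log2 fold change of vesicle over cell total RNA for each precursor entry in HL60 against the same value in KG1a, with sEV in the left panel and lEV in the right. Most entries lie below 0 on both axes; entry 43 lies above 0 on both axes in the lEV panel, and entry 47 lies above 0 in HL60 and below 0 in KG1a in the sEV panel.

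Few members rose in vesicles, and the clearest was entry 43, in lEV. It had 561, 1252 and 2227 CPM in HL60 lEV, against 402, 207 and 366 CPM in HL60 cells (log2 fold change 2.79 ± 0.55, adjusted p = 0.0029). In KG1a it had 1220.4, 764 and 434 CPM in lEV, against 283, 262, 395 and 199 CPM in cells (1.42 ± 0.38, adjusted p = 0.0053). Every lEV library was above every cell library of its line. In sEV the direction was the opposite, with 93.8, 92.0 and 219.7 CPM in HL60 sEV (-1.54 ± 0.39, adjusted p = 0.0206) and 55.8, 216 and 55.2 CPM in KG1a sEV (-2.26 ± 0.63, adjusted p = 0.0121). It was thus lower in sEV than in lEV, by 4.31 ± 0.68 on the log2 scale in HL60 (adjusted p = 0.0148) and by 3.56 ± 0.82 in KG1a (adjusted p = 0.0412). The call in KG1a was lost in 5 of the fits that left out 1 library, and that in HL60 in each of the 3 that left out an lEV library.

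Entry 48 rose in HL60 sEV, while its values in HL60 lEV and in KG1a vesicles did not pass the test. In total RNA it had 131, 480.2 and 2331 CPM in HL60 sEV and 11.7, 7.61 and 78.0 CPM in HL60 lEV, against 31.9, 25.2 and 32.6 CPM in HL60 cells. HL60 sEV lay above HL60 cells in every library, and its replicate 3 was far above replicates 1 and 2. The log2 fold change of HL60 sEV over cells was 4.70 ± 0.89 (adjusted p = 0.0065), and the call was lost when any 1 cell library was left out, at values between 4.41 and 4.58. Between HL60 sEV and lEV it was 4.16 ± 1.03 (adjusted p = 0.0319). Without HL60 sEV replicate 3 that value was 2.49 and no longer called, and it was also not called without sEV replicate 2 or without any 1 of the lEV libraries. In KG1a it was 0.06 for sEV and -0.23 for lEV over cells, neither called. The difference between the lines in the change of sEV over cells was 4.58 ± 1.25 with an adjusted p of 0.121, which did not pass. Entry 142, the other member above 0 in rPAL RNA, rose in the sEV of both lines. Its log2 fold change over cells was 5.89 ± 1.35 in HL60 (adjusted p = 0.0134) and 2.41 ± 0.73 in KG1a (adjusted p = 0.019).

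The other members that rose were named after their values were seen. In HL60 sEV these were entries 47, 70, 133, 151, 152, 155, 156, 173 and 174, with log2 fold changes over cells between 2.26 and 3.30. In HL60 lEV, besides entry 43, entries 152, 155, 156, 173 and 174 rose, with values of at least 1.85. In KG1a lEV the risers besides entry 43 were entries 70 (1.11 ± 0.41, adjusted p = 0.0313) and 155 (0.78 ± 0.32, adjusted p = 0.0487), and in KG1a sEV entry 142 alone was called higher. Entry 70 had 168, 414 and 481 CPM in KG1a lEV, against 126, 117, 127 and 229 CPM in KG1a cells, and 1 lEV library lay within the range of the cells. Entry 155 had 16.0, 14.1 and 7.01 CPM in HL60 sEV and 3.77, 0.658 and 3.92 CPM in HL60 lEV, against 0.856, 1.14 and 1.89 CPM in HL60 cells. Every HL60 sEV library was above the HL60 cells, while HL60 lEV replicate 2 was below them. Entries 151, 152, 155, 156, 173 and 174 had the same closest feature of another type, an ncRNA entry with 1848 counts, at correlations of at least 0.881 over the 38 libraries. Whether their rises are separate observations was not tested.

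Between sEV and lEV total RNA few members were called. By sign alone, 138 tested members lay above 0 and 22 below in HL60, and 29 above and 133 below in KG1a. In HL60, 2 of 160 tested members rose in sEV (entries 48 and 142) and 1 fell (entry 43), against 5.45% higher and 1.75% lower among all features, with a median log2 fold change of 0.54 beside 0.07 for all features. In KG1a, 2 of 162 fell (entries 43 and 133) and none rose, against 1.9% lower and 3.41% higher among all features, with a median of -0.42 beside 0.13. The direction in KG1a turned with the scaling. Without TMM the KG1a median was 0.38 and that of all features 0.99, with 4 members higher and 2 lower. The HL60 median without TMM was 1.49 and that of all features 1.04, with 12 members higher and 1 lower. Calls among all features in HL60 rose as well, to 1064 from 419. In HL60 leaving out lEV replicate 2 gave a median of 0.03 and no call by edgeR among all features, of which 1815 had an unadjusted p under 0.05. In KG1a, samples with the same replicate number deviated together, and with the replicate number as a block 7 members were lower and 1 higher.

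The lines were then compared within each source. In cell total RNA, 24 of 175 tested members were higher in HL60 than in KG1a and 110 were lower, against 18.4% higher and 21.5% lower among all features. The median log2 fold change of HL60 over KG1a was -1.16, and -0.01 for all features. In lEV, 16 of 172 were higher and 46 lower, against 7.04% and 9.1% of all features, at a median of -1.18 and 0.04 for all features. In sEV, 17 of 174 were higher and 17 lower, against 0.606% and 0.769% of all features, at a median of -0.05 and 0.01 for all features. Over the 3 sources, 14 members were higher in HL60 in each, 17 were lower in each, and none was called in opposite directions. With entries chosen outside the groups compared, 22 of 152 were higher and 96 lower in cells, 16 of 164 and 45 in lEV, and 17 of 167 and 17 in sEV. Without TMM, 15 were higher and 30 lower in sEV, at a median of -0.80, and 13 were higher and 90 lower in lEV, at a median of -2.12. Without HL60 lEV replicate 2, 21 were higher and 40 lower in lEV, at a median of -0.78, and without HL60 lEV replicate 1 the lEV median was -1.80. Calls among all features in lEV were 1140 and 1136 in these fits, against 1004 with all libraries. In sEV, leaving out 1 library left between 6 and 23 called members, the fewest without KG1a sEV replicate 1. Leaving out HL60 sEV replicate 1, 2 or 3 left 18, 13 and 15, and leaving out KG1a sEV replicate 3 left 18.

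Entry 57 was far higher in HL60. It had 986, 667 and 594 CPM in HL60 sEV, against 0.964, 0.582 and 1.16 CPM in KG1a sEV. In lEV it had 417, 41.9 and 344 CPM in HL60, against 0.554, 0.278 and 0.306 CPM in KG1a. In cells it had 1583, 1403 and 1821 CPM in HL60, against 0.290, 0.329, 0.471 and 0.252 CPM in KG1a. Every HL60 library lay above every KG1a library in all 3 sources. The log2 fold change of HL60 over KG1a was 10.47 ± 0.65 in sEV, 10.29 ± 1.06 in lEV and 12.29 ± 0.35 in cells, with adjusted p of 0.000284, 0.000194 and 2.86e-15. Entries 63, 108 and 116 were higher in HL60 in the same way, with log2 fold changes between 7.20 and 9.05 over the 3 sources. The call of entry 116 in sEV was lost without KG1a sEV replicate 1.

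Entries 74 and 47 were the reverse. Entry 74, URS0000B39B25, had 0.364, 0.120 and 0.384 CPM in HL60 sEV, against 288, 193 and 205 CPM in KG1a sEV. In lEV it had 2 counts over the 3 HL60 libraries, against 167, 182 and 141 CPM in KG1a. In cells it had 2 counts over the 3 HL60 libraries, against 279.9, 375, 363 and 456 CPM in KG1a. The groups did not overlap in any source. The ratio of HL60 over KG1a was 0.00125 in sEV, 0.000312 in lEV and 0.000127 in cells. The exact 95% intervals, which cover counting error only, were 0.000504 to 0.00259, 3.78e-05 to 0.00113, and 1.53e-05 to 0.000458. The adjusted p was 0.0024, 0.000134 and 9.93e-13 in sEV, lEV and cells. Entry 47 had 2.73, 2.28 and 7.01 CPM in HL60 sEV, against 1842, 683 and 814 CPM in KG1a sEV. In cells it had 0.571, 0.269 and 0.559 CPM in HL60, against 1864, 2211, 1940.2 and 2547 CPM in KG1a. The log2 fold change was -7.40 ± 0.80 in sEV, -8.88 ± 0.90 in lEV and -12.07 ± 0.40 in cells, so HL60 libraries were far below all KG1a libraries.

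Among the 10 most abundant members, entry 7 differed most between the lines. It had 354, 349 and 389.9 CPM in HL60 sEV, against 8585, 5254 and 5118 CPM in KG1a sEV. In lEV it had 198, 50.3 and 199 CPM in HL60, against 7249, 4636 and 4954 CPM in KG1a. In cells it had 741, 669 and 855 CPM in HL60, against 16557, 16363, 17599.5 and 17174 CPM in KG1a. Each source kept the lines apart, with log2 fold changes of -3.39 ± 0.48, -4.32 ± 0.65 and -4.40 ± 0.22 in sEV, lEV and cells. Entry 14 was lower by 3.23, 3.82 and 4.28 on the log2 scale in the same sources. Entry 1 itself was lower in HL60 cells by 1.01 ± 0.18 (adjusted p = 0.0002), while its values of -2.06 ± 0.67 in lEV and -1.26 ± 0.39 in sEV did not pass, with adjusted p of 0.0565 and 0.191. Entry 30, one of the members above 0 in rPAL RNA in some sources, had log2 fold changes of -3.18, -4.82 and -5.46 in sEV, lEV and cells. Its total RNA values in cells were 40.7, 37.7 and 47.7 CPM in HL60, against 1748, 1895, 1993 and 2263 CPM in KG1a, with no overlap.

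**Figure D5:**
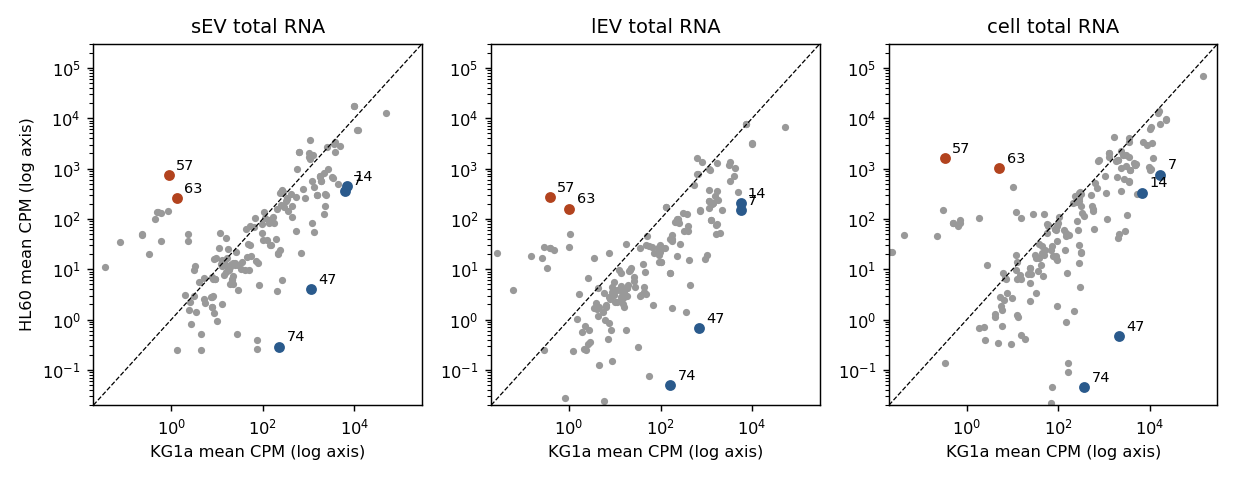
Mean CPM of each precursor entry in HL60 against its mean CPM in KG1a total RNA (both axes log scale), in sEV, lEV and cells, for entries with a count in both lines; the diagonal marks equal levels. Entries 57 and 63 lie far on the HL60 side and entries 74, 47, 7 and 14 on the KG1a side in all 3 panels.

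Whether the vesicle change differed between the lines was tested as an interaction, HL60 minus KG1a. For sEV over cells, 2 of 176 tested members were called, both higher in HL60, against 0.0586% of all features, and none lower, against 0% of all features. For lEV over cells none of 175 was called by edgeR, against 0.171% higher and 0.413% lower among all features, and DESeq2 called 1. At an unadjusted p under 0.05 there were 80 of 176 members for sEV and 12 of 175 for lEV. The shares of all features at that limit are not given here, so these counts have no background beside them. The medians were 1.12 for sEV and 0.12 for lEV, beside -0.07 and -0.05 for all features. Both called entries were among those that went in opposite directions. Entry 47 had 2.73, 2.28 and 7.01 CPM in HL60 sEV, against 0.571, 0.269 and 0.559 CPM in HL60 cells (log2 fold change 2.81 ± 0.56). In KG1a it had 1842, 683 and 814 CPM in sEV, against 1864, 2211, 1940.2 and 2547 CPM in cells (-2.02 ± 0.44). Its interaction was 4.73 ± 0.71, with an adjusted p of 0.0101. Entry 133 had 1.64, 0.959 and 6.82 CPM in HL60 sEV, against 0.285, 0.537 and 0.419 CPM in HL60 cells, and 3.21, 1.75 and 1.04 CPM in KG1a sEV, against 12.6, 19.5, 16.3 and 28.3 CPM in KG1a cells. Its interaction was 6.75 ± 1.03, with an adjusted p of 0.0111. For both entries every sEV library was above every cell library in HL60 and below every cell library in KG1a. DESeq2 called 48 members in this interaction, a count also given without the share of all features. With 1 library left out, edgeR called 1 without HL60 cell replicate 1 or 3 and none without HL60 cell replicate 2. It called 5 without HL60 sEV replicate 3 and 5 without KG1a sEV replicate 1.

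The genes that make and hold miRNAs were read from a list of 28 chosen by function, whose mRNAs appear in these libraries only as short fragments. In vesicles over cells of KG1a, 7 of 22 tested genes rose in sEV and none fell, against 23% and 22.1% of all features, among them XPO5, which encodes exportin 5, DIS3L2, a nuclease of uridylated precursors, and ADAR, an RNA editing enzyme. In KG1a lEV 7 of 20 rose, among them RAN, the export cofactor, and AGO1, and 2 fell, AGO2 and the helicase gene DDX5, against 23.8% and 28.5% of all features. In HL60 sEV 2 of 23 rose, XPO5 and TNRC6C, a partner of Argonaute, against 13.9% of all features. In HL60 lEV 3 of 22 rose, TNRC6B, the uridylyltransferase gene TUT7 and ADAR, against 12.1% of all features. Between the lines, 4 of 22 were higher in HL60 cells and 3 lower, against 18.4% and 21.5% of all features, so neither passed the background. The higher ones were RAN, AGO4, HNRNPA1 and HNRNPA2B1, and the lower ones DROSHA, AGO2 and TNRC6B. AGO2 averaged 2.02 CPM in HL60 cells, against 24.4 CPM in KG1a cells, and DROSHA 1.61 CPM in HL60 cells, against 3.57 CPM in KG1a cells. RAN averaged 2.52 CPM in HL60 cells, against 1.12 CPM in KG1a cells, and AGO4 1.34 CPM, against 0.47 CPM. In rPAL over total RNA, 3 of 20 rose in HL60 cells (XPO5, TNRC6C and DDX17), 1 of 13 in HL60 lEV (HNRNPA2B1) and 1 of 20 in KG1a cells (DIS3L2), against 20.6%, 12.3% and 8.89% of all features. None was called in the other 3 sources. None was called between sEV and lEV in either line, nor between the lines in sEV.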

How the data were processed

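The values analysed are the deposited raw counts of reads per feature. The authors aligned the reads with Bowtie2, and the genome builds named are GRCh38 and hg38, per the submitters' processing notes. Which program counted the reads, how multiply mapped reads were handled, the annotation release and all versions are not given in the sources used here. All 38 columns matched a labelled library. No replicate pair agreed within sampling noise, the lowest chi-square per degree of freedom being 31.9.

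Members and lists were chosen with earlier results of these data known. CPM is a count scaled to a library total of 1000000. Each comparison was fitted on all features of its 2 groups with edgeR 4.0.16 in R 4.3.3 (TMM scaling, filterByExpr, robust quasi-likelihood test), with Benjamini-Hochberg adjustment over all features tested and a threshold of 0.05. SE is the log2 fold change divided by the root of F. The fits were tested on simulated data. The members described singly were the 10 with the largest sums, those above 0 in at least 4 of 6 rPAL sources, and up to 2 highest and 2 lowest per total RNA comparison among called, non-overlapping members with a mean of at least 50 CPM. Entries 14, 30 and 133 and the other risers in vesicles were named after their values were seen.

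Alternatives were other scalings (RLE, none), no filter, DESeq2 1.42.0, a replicate block, each library left out, 1 member per constant-ratio pair, and other thresholds on the sum. The interactions, the constant-ratio rule, the fits without libraries that stood apart and the entries chosen outside the groups compared were chosen after seeing the data. Replicate numbers paired samples only where every same-numbered pair of deviations correlated above 0.1, which held for KG1a sEV and lEV total RNA (0.239 to 0.533) and for sEV total RNA of the 2 lines (0.146 to 0.371).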

Additional observations from a re-analysis of the deposited data

Results flagged for a closer look

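Entry 142 had 0.740 CPM in KG1a cell total RNA replicate 2, against 0.168 to 0.217 CPM in the other 3 libraries of that group, a gap larger than Dixon's 95% limit for 4 samples. This was the only such value among 30 groups of member values examined, and chance alone marks about 1 in 20 groups. The rPAL libraries of KG1a cells had between 2.96 and 5.40 CPM, all above 0.740 CPM. All 4 total RNA values are below 1 CPM and rest on few counts. The 30 groups did not cover every member in every group. In KG1a lEV rPAL RNA, described earlier, entry 142 had 1 library far above the others.

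Entry 47 changed differently in the sEV of the 2 lines, with a tested difference of 4.73 on the log2 scale between its change over cells in HL60 (2.81) and in KG1a (-2.02). The entry was scarce in HL60, as the CPM given earlier show, so its HL60 change rests on few counts. Without HL60 cell replicate 2, edgeR called no member in this interaction.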

How the results depend on the processing

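Of 26 named total RNA values, 21 kept their direction and call under every alternative, none reversed over 295 alternatives, and 17 alternatives, all leaving out 1 library, lost a call (entries 43, 48 and 116). Leaving out 1 library gave these ranges of called members in rPAL over total RNA: HL60 sEV 47 to 87, lEV 35 to 127, cells 147 to 157, KG1a sEV 0 to 76, lEV 0 to 115, cells 88 to 111. In KG1a sEV the 0 came without rPAL replicate 1 or 2, and 28 and 59 without total replicate 1 or 2. In KG1a lEV the 0 came without total replicate 1, 40 without rPAL replicate 1, 49 without total replicate 3 and 115 without rPAL replicate 2. In HL60 lEV 35, 40 and 42 came without total replicate 1, 2 or 3, and 114 and 127 without rPAL replicate 1 or 2. In HL60 sEV 62 and 47 came without rPAL replicate 1 or 2, and 60, 67 and 60 without total replicate 1, 2 or 3. The ranges in total RNA were HL60 sEV over cells 55 to 96, lEV over cells 34 to 101, sEV over lEV 0 to 4 (0 without any 1 lEV library), KG1a 128 to 139, 102 to 135 and 0 to 2 (0 without any 1 lEV library). HL60 over KG1a gave 6 to 23 in sEV, 46 to 80 in lEV and 120 to 133 in cells, and the interactions 0 to 5 for sEV and 0 to 1 for lEV. The number of calls among all features also moved with the library left out, and these member ranges are given without it. Without the filter, rPAL counts were 1 in KG1a lEV, 8 in KG1a sEV and 61 in HL60 sEV, KG1a sEV over lEV had 6 and the sEV interaction 6. Without TMM, KG1a sEV over lEV had 6, HL60 lEV over cells 101, HL60 sEV over lEV 13, HL60 over KG1a lEV 103 and the lEV interaction 4. DESeq2 called 115 in KG1a lEV rPAL, 48 in the sEV and 1 in the lEV interaction, which had 0 with 1 member per pair. With the replicate block KG1a sEV over lEV had 8 called, the sEV interaction 1, and sEV of the lines 33; no other count moved by over 1.5 times. With 3 of 6 sources as the limit, 5 members counted as above 0 in rPAL RNA (entries 30, 48, 133, 142 and 167). Where a count of 0 came without 1 library in rPAL over total RNA or in sEV over lEV, edgeR called no feature at all, while 1321 to 3064 features in rPAL and 1447 to 1844 in sEV over lEV had an unadjusted p under 0.05. The cause was not tested. Up to 97 members had no count in a vesicle rPAL group.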
